A study of Mus musculus with 24 samples.

Results

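Cholesterol synthesis, its control by the transcription factor SREBP2, and the handling of the sterol product were followed through 29 genes in 3T3-L1 cells, a mouse embryonic fibroblast line that can be induced to become adipocytes. The genes were chosen by name: 8 of the mevalonate steps, 11 of the squalene and sterol steps, 4 that control SREBP2, 4 that move sterols inside the cell and 2 efflux pumps. All 29 were among the 26995 gene symbols measured, with 65 of the 91830 3′UTR entries, and each gene was read from its entry with the most total reads. Libraries came from 24 samples of 8 conditions with 3 replicates each, lettered A, B and C. Cells received the solvent DMSO or 0.5 µM ML-792, an inhibitor of the enzyme that activates SUMO for attachment to proteins, and were harvested at day -2, 1, 3 or 7. No line other than 3T3-L1 and no genetic change was involved, and all cells of both arms were given 100 µM 4-thiouridine for 45 min before harvest. Day -2 cells were pre-adipocytes in calf serum, the later cells had been moved to fetal bovine serum with dexamethasone, IBMX and insulin, and the medium was changed again at day 3 to one that kept insulin. Day and medium therefore cannot be told apart, and the time at which ML-792 was first given to these cultures is not given in the sources used here. The replicates are described as biological, but they are cultures of 1 line, so the p-values measure the spread between such cultures.

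Cells make cholesterol from acetyl-CoA through mevalonate, farnesyl diphosphate, squalene and lanosterol. The precursor of SREBP2 lies in the endoplasmic reticulum bound to its escort SCAP. When sterols are plentiful the INSIG proteins hold the pair there, and when sterols fall SCAP carries SREBP2 to the Golgi, where it is cut to release a factor that activates nearly every gene of the pathway, as well as Insig1 and Stard4. The nuclear receptors LXR sense oxidised sterols and drive the pumps Abca1 and Abcg1, which hand cholesterol to lipoproteins. Adipocytes store much of their cholesterol unesterified in the lipid droplet and its surface.

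Each library had 13554718 to 27013352 total reads from 3′ ends, of which 115709 to 820046 carried at least 1 T-to-C change and were counted as labelled. Such reads stand for RNA made during the 45 min of labelling, with sequencing errors added. The 29 genes held 26557 to 104573 total and 195 to 3362 labelled reads per library, so the labelled values of single genes rest on few reads. No 2 libraries were copies of each other, the highest correlation between any pair being 0.990 on log2 counts. The cells carried the markers of their label: the DMSO mean of Adipoq, an adipocyte hormone, went from 289.7 normalised reads at day -2 to 108095 at day 7, that of Col1a1, a fibroblast collagen, went from 151247 to 11873, and Ptprc of leukocytes and Epcam of epithelium had no read in any library, the other 5 markers of foreign cell types summing to at most 153.9. All values below are normalised reads, which are counts scaled to a common library size, fold changes are given as log2 with their standard error, and values compare 1 gene between samples, never 1 gene with another. A time difference was called at an adjusted p under 0.01, and an ML-792 effect at an adjusted p under 0.1.

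In the DMSO cells the pathway fell within a day of induction. At day 1, 17 of the 29 genes were lower than at day -2 and 2 were higher, against 9.86% of all genes lower and 6.99% higher. The median log2 fold change was -1.56 over the 29 genes and 0.0035 over all genes tested. Libraries of the 2 days did not overlap for any of the 19 genes called. This adds little to the calls, since no called gene of the 29 overlapped in any comparison, and no share over all genes is given. In these bulk libraries, fewer cells expressing a gene and less RNA per cell cannot be told apart. Beside this change, 4 of 7 adipocyte markers were higher at day 1 and 3 of 7 fibroblast markers lower. The summed level of the first list was 22388 to 23989.6 normalised reads at day -2 and 40179 to 43929 at day 1, that of the second 417182 to 524291 and 247910.0 to 257311. Most of the first sum was Lpl, with DMSO means of 20988 at day -2 and 37131 at day 1, while Adipoq had 289.7 and 314. The part of cell identity in the result was not tested. Leaving out replicate A removed the calls of Abcg1, Acat2, Cyp51, Hsd17b7 and Mvk and left 14, and leaving out replicate C removed the calls of Abcg1, Acat2, Hsd17b7 and Mvk and left 15.

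**Figure D1:**
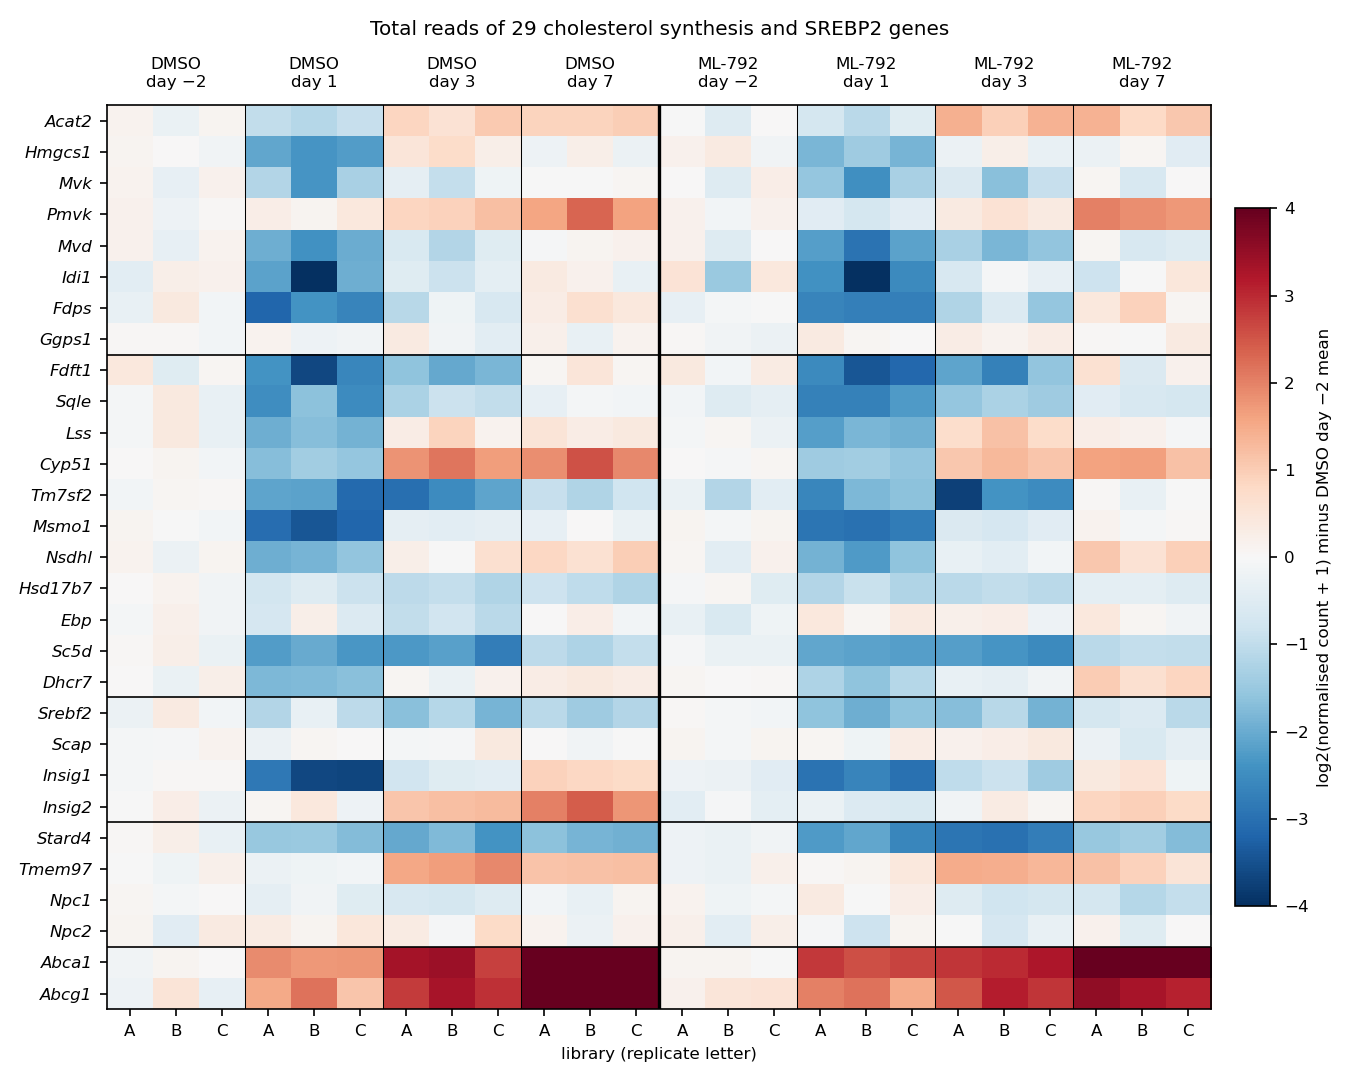
Level of each of the 29 genes in every library, as log2 of total normalised reads plus 1, minus the gene's mean in the DMSO day -2 libraries; columns are the 24 libraries by condition and replicate letter, rows are the genes by role, and colours stop at 4 in either direction. Most rows of the synthesis enzymes and Insig1 are deepest blue in the day 1 columns, in DMSO and in ML-792, while Abca1 and Abcg1 turn red towards day 7.

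Among the 8 genes of the mevalonate steps, 5 fell at day 1 and none rose. Hmgcs1, which makes HMG-CoA and so commits carbon to the pathway, was read from its 3′UTR at chr13:119706479-119708260 (mm10, plus strand). It stood at 7503, 7052 and 6235 normalised reads at day -2 and at 1639, 1355 and 1471 at day 1. Every day 1 library lay below every day -2 library, with a log2 fold change of -2.22 ± 0.19, adjusted p = 8.98e-07. Fdps, the farnesyl diphosphate synthase, changed by -2.74 on the log2 scale, Mvd, the decarboxylase that yields isopentenyl diphosphate, by -2.11, the mevalonate kinase Mvk by -1.54 and the cytosolic thiolase Acat2 by -1.02. The other three were not called. Pmvk, the phosphomevalonate kinase between Mvk and Mvd, had a log2 fold change of 0.26 ± 0.21, adjusted p = 0.420. Ggps1, which takes farnesyl diphosphate towards protein prenylation and away from sterols, had -0.06 ± 0.21, adjusted p = 0.872. Idi1, the isomerase, had 11.5, 18.8 and 17.8 normalised reads at day -2 and 2.76, 0 and 3.30 at day 1, without overlap. It was not called (adjusted p = 0.0111), but was with DESeq2, with 1 entry per gene and with all 24 libraries in the fit.

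In the squalene and sterol steps, 10 of 11 genes were lower at day 1 and none higher. Msmo1, the oxidase that starts the removal of the C4 methyl groups from the sterol ring, was read at chr8:64718145-64718985 (minus strand) and went from 7173, 6593 and 6114 normalised reads to 804, 620.3 and 733, a log2 fold change of -3.20 ± 0.17, adjusted p = 1.19e-08. All day 1 libraries of Msmo1 lay far below those of day -2. Sqle, the squalene epoxidase and a control point of the pathway, went from 1750.0, 2448 and 1516 to 329, 594 and 326. Replicate B was the highest of the Sqle libraries on both days, and the groups did not overlap (log2 fold change -2.19 ± 0.25, adjusted p = 1.35e-05). The log2 fold changes of the remaining enzymes were -2.83 for Fdft1, the squalene synthase, -2.42 for the sterol reductase Tm7sf2, -2.20 for the sterol desaturase Sc5d, -1.88 for the lanosterol synthase Lss and -1.80 for Nsdhl, which acts after Msmo1. They were -1.77 for Dhcr7, the reductase of the last step, -1.56 for the lanosterol demethylase Cyp51 and -0.70 for the ketoreductase Hsd17b7. The exception was the sterol isomerase Ebp, with a log2 fold change of -0.27 ± 0.22, adjusted p = 0.437, whose day 1 libraries at 1084, 2035 and 1168 overlapped the day -2 libraries at 1629, 1963 and 1568.

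Of the 4 genes that control SREBP2, only Insig1 was called at day 1, and it had the largest fall of the 29 genes. Insig1, read at chr5:28076821-28078662 (plus strand), stood at 488, 529 and 530.2 normalised reads at day -2 and at 69.9, 40.1 and 39.6 at day 1 (log2 fold change -3.37 ± 0.23, adjusted p = 9.51e-08). Insig2, which encodes a second retention protein and is not known as an SREBP2 target, stood at 445, 534 and 378 and at 477, 598 and 393, with overlapping libraries and a log2 fold change of 0.11 ± 0.21, adjusted p = 0.756. The paralogs thus separated at day 1. Scap was level across the course, from 772, 795 and 899.6 at day -2 to 697, 869.9 and 827 at day 1, 785, 801 and 1067 at day 3 and 820.4, 737 and 814 at day 7, and its log2 fold change was -0.04 ± 0.17, adjusted p = 0.901 at day 1. Srebf2, which encodes SREBP2, went from 1309, 1989.8 and 1432 to 683, 1269 and 755, with replicate B again the highest on both days. Its log2 fold change of -0.81 ± 0.25, adjusted p = 0.0314 missed the threshold, and with the replicate letter as a block it was -0.83 ± 0.19, adjusted p = 0.00317.

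**Figure D2:**
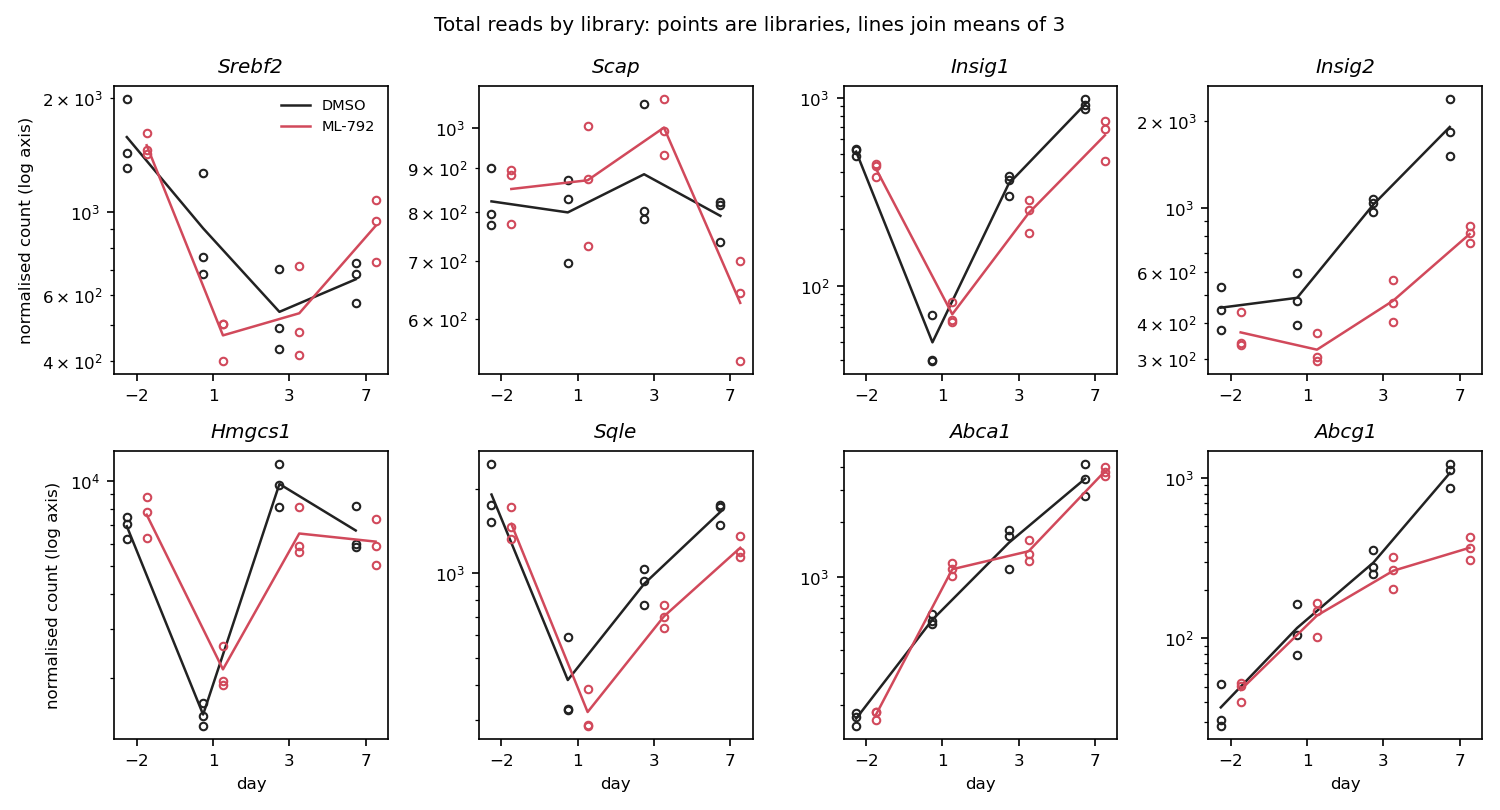
Total normalised reads on a log axis by day, evenly spaced, for Srebf2, Scap, Insig1, Insig2, Hmgcs1, Sqle, Abca1 and Abcg1; points are single libraries and lines join the means of the 3 replicates in DMSO and in ML-792. Insig1, Hmgcs1 and Sqle dip at day 1 in both arms, Abca1 and Abcg1 climb, Insig2 rises less with ML-792, and Abcg1 is lower with ML-792 at day 7.

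The genes that move sterols split. Stard4, a soluble carrier of cholesterol between membranes and an SREBP2 target, went from 1844, 2119 and 1471 normalised reads at day -2 to 624, 646 and 543 at day 1, without overlap, a log2 fold change of -1.58 ± 0.20, adjusted p = 2.80e-05. Npc1 and Npc2, which export cholesterol from lysosomes, were not called at day 1 (log2 fold changes -0.32 ± 0.16, adjusted p = 0.186, and 0.27 ± 0.24, adjusted p = 0.469), and neither was Tmem97, a membrane protein that binds NPC1 (-0.18 ± 0.17, adjusted p = 0.505). The pumps moved the other way. Abca1 rose from 154, 182 and 171 to 628, 557 and 575, a log2 fold change of 1.80 ± 0.21, adjusted p = 1.69e-05. Abcg1 rose from 31.1, 51.9 and 28.4 to 105, 165 and 79.2, with every day 1 library above every day -2 library (1.64 ± 0.31, adjusted p = 0.00102).

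The promoters of the 29 genes were searched, as a description, for letters linked to SREBP2. RefSeq promoters (GRCm38.p6, 250 bases before to 50 after the start) were given for 23 of the 29 genes, and not for Fdps, Fdft1, Sqle, Stard4, Npc1 and Abcg1. CCAAT, the letters bound by NF-Y, a usual partner of SREBP2, was present on either strand in 20 of the 23 genes, against 41.1% of all 27025 genes with a promoter. TCACNCCAC, a core of the sterol regulatory element, was found in 1 of the 23, Hmgcs1, and in 1.44% of all genes. CACGTG, the E-box, was found in Hsd17b7, Sc5d, Dhcr7, Scap, Insig1 and Abca1, and in 8.09% of all genes. These shares cover every gene with a promoter given and are not limited to the 13331 genes tested in total reads. Whether a motif count departs from its share was not tested. No match shared letters with a match of another motif. Windows of 30 bases are shown for genes on which the time course turns, 5′ to 3′ on the gene's strand, with the match in capitals. ATTGG is CCAAT read on the opposite strand.
Hmgcs1 sterol regulatory element core, chr13:119690204-119690233: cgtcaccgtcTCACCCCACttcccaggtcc
Hmgcs1 CCAAT, chr13:119690163-119690192: cgccgtcccgccATTGGcaggcttgttctc
Msmo1 CCAAT, chr8:64733657-64733686: ccttagcacggaCCAATcactgcacggcga
Cyp51 CCAAT, chr5:4104709-4104738: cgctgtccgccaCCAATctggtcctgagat
Mvd CCAAT, chr8:122443465-122443494: ggcctgtcgcctATTGGacagcacgggaaa
Insig1 CCAAT, chr5:28071184-28071213: cgccctcctcccATTGGctccggcggcctc
Insig1 E-box, chr5:28071299-28071328: gctgggtgaggtCACGTGgctccggtggca
Srebf2 CCAAT, chr15:82147122-82147151: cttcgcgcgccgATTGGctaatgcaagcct
Insig2 CCAAT, chr1:121332618-121332647: acatcccctgccATTGGtcaccttccacac
Abca1 E-box, chr4:53160025-53160054: gggccatgtctcCACGTGctttctgctgag

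The Hmgcs1 core lay at base -137 from the start and one of its CCAAT matches at base -176. Total reads of Insig2, Srebf2, Pmvk, Ggps1, Ebp, Idi1, Tmem97 and Npc2 were not called at day 1 without the letter as a block. CCAAT was present in all of them, as well as in genes that fell. Acat2, which fell, had none in its window. Such matches describe the letters only, and binding was not measured.

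By day 3 many of the synthesis genes had risen again. Against day 1, 16 of the 29 genes were higher at day 3 and 0 lower, beside 11.3% of all genes higher and 11.9% lower, with a median log2 fold change of 1.14. This comparison shares its day 1 libraries with the one above. Cyp51 rose the most, from 458, 566 and 509.7 normalised reads at day 1 to 5188, 6681 and 4789 at day 3, well past its day -2 libraries at 1505, 1616 and 1389.9. Its log2 fold change from day 1 was 3.44 ± 0.22, adjusted p = 2.15e-08. Msmo1 returned to 5147, 4970.3 and 5187 (2.83 ± 0.17, adjusted p = 1.21e-08). Hmgcs1 reached 9708, 11532 and 8126, with every library above those of day -2 (from day 1, 2.72 ± 0.20, adjusted p = 7.98e-08).

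The return was not uniform. Sqle stood at 769, 1036 and 941 at day 3, above day 1 (1.14 ± 0.24, adjusted p = 0.00228) but below day -2 in every library. Insig1 reached 299.8, 364 and 381, a log2 fold change of 2.80 ± 0.23, adjusted p = 2.44e-07 from day 1. Sc5d did not come back at all at this time, with 331, 388 and 313 normalised reads at day 1 and 321, 344 and 229 at day 3. Srebf2 itself was lower still at day 3, at 489, 704 and 430.5, and differed from day 1 by -0.74 ± 0.26, adjusted p = 0.0412. With the replicate letter as a block, Srebf2 and Ebp were called lower at day 3 than at day 1 (Srebf2 -0.72 ± 0.19, adjusted p = 0.00713, and Ebp -0.64 ± 0.14, adjusted p = 0.00207), and Pmvk and Fdft1 were called higher (Pmvk 0.73 ± 0.19, adjusted p = 0.00776, and Fdft1 1.00 ± 0.26, adjusted p = 0.00639). Leaving out replicate A removed the calls of Abcg1, Insig2, Mvd, Mvk and Sqle and left 11.

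Against day -2, the day 3 cells had 10 of the 29 genes lower and 7 higher, beside 19.4% of all genes lower and 16.6% higher. Whether either count departs from its share was not tested. Lower were Mvd, Fdft1, Sqle, Tm7sf2, Hsd17b7, Ebp, Sc5d, Srebf2, Stard4 and Npc1, from -0.62 for Npc1 to -2.53 for Tm7sf2. Higher were Acat2, Pmvk, Cyp51, Insig2, Tmem97, Abca1 and Abcg1, from 0.83 for Acat2 to 3.19 for Abca1. The squalene and sterol steps held 6 of the lower genes and 1 of the higher, Cyp51. With the letter as a block, Fdps was called lower as well (-0.63 ± 0.14, adjusted p = 0.00151) and Hmgcs1 higher (0.49 ± 0.14, adjusted p = 0.00809). The count fell from 17 to 9 without replicate A and to 11 without replicate C.

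In day 7 adipocytes the pumps and both INSIG genes were higher than in pre-adipocytes, Srebf2 and Stard4 were lower, and most enzymes were not called. Against day -2, 4 of the 29 genes were lower and 9 higher, beside 19.4% of all genes lower and 18.9% higher. Whether either count departs from its share was not tested. The median log2 fold change was 0.06. Srebf2 stayed low, at 728, 573 and 681 normalised reads with every library below the lowest day -2 library (log2 fold change -1.26 ± 0.26, adjusted p = 8.69e-04). Stard4 stayed low too, at 569.8, 498 and 476 (-1.82 ± 0.20, adjusted p = 1.96e-06). Sc5d was partly restored, at 766, 661 and 817 (-1.08 ± 0.19, adjusted p = 2.77e-04). The lower call of Sc5d was lost without replicate A and that of Srebf2 without replicate C.

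Abcg1 had the largest rise, to 1227, 869.9 and 1127 normalised reads (log2 fold change 4.85 ± 0.33, adjusted p = 1.01e-08). Abca1 reached 4169, 2776 and 3437 (4.36 ± 0.23, adjusted p = 8.95e-10), so both pumps were far above every earlier DMSO library. Insig2 climbed in every interval after day 1, to 969, 1042 and 1076 at day 3 and 1828, 2382 and 1512 at day 7 (2.08 ± 0.21, adjusted p = 1.05e-06). Insig1, after its dip, ended above its starting level at 982, 911 and 870.3 (0.84 ± 0.21, adjusted p = 0.00357), a call lost without replicate A or without replicate C. Cyp51 ended at 5489.7, 8770.5 and 5738 (2.15 ± 0.21, adjusted p = 5.47e-07) and Pmvk at 1380.0, 2334 and 1429 (1.88 ± 0.22, adjusted p = 3.46e-06). Hmgcs1 and Sqle were back near their day -2 values at 6014, 8205 and 5865 and at 1489.5, 1751 and 1716, with overlapping libraries in both genes.

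Between day 3 and day 7, 9 of the 29 genes rose and 0 fell, beside 6.54% of all genes higher and 4.34% lower. They were Pmvk, Fdft1, Tm7sf2, Ebp, Sc5d, Insig1, Insig2, Abca1 and Abcg1, with log2 fold changes from 0.88 for Pmvk to 2.04 for Fdft1. Tm7sf2 and Sc5d rose in this interval and were not called between day 1 and day 3, whereas Hmgcs1, Cyp51 and Msmo1 were called higher in the earlier interval and not in this one; the difference between intervals was not tested. With the letter as a block 15 genes were called: Fdps (1.09 ± 0.14, adjusted p = 4.19e-05), Mvd (0.83 ± 0.14, adjusted p = 5.93e-04), Sqle (0.86 ± 0.16, adjusted p = 8.37e-04) and Nsdhl (0.51 ± 0.13, adjusted p = 0.00780) higher, and Tmem97 (-0.54 ± 0.14, adjusted p = 0.00934) and Hmgcs1 (-0.55 ± 0.14, adjusted p = 0.00891) lower, besides the 9. This comparison was fragile, since 1 gene was called without replicate A and 0 without replicate C.

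Over the whole DMSO course, 16 of the 29 genes had their lowest mean at day 1, as did 19.2% of all genes, and none had its highest mean there, against 20.8% of all genes. By contrast 15 of the 29 had their highest mean at day 7, against 27.8% of all genes, and 9 at day -2, against 31.2%.

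Labelled reads stand for RNA made within the 45 min before harvest, and sequencing errors add to them. They sufficed for a test in 21 of the 29 genes, and not in Mvk, Idi1, Tm7sf2, Ebp, Scap, Insig2, Tmem97 and Abcg1. Fdps, Fdft1 and Mvd had enough labelled reads for the test only at day -2, with at most 8 in any later library. Pmvk also entered the test through day -2, with 10 labelled reads in DMSO day 3 C and at most 7 in any other later library. For such genes a lower value at later days follows in part from this selection, which held for all genes alike. At day 1, 17 of the 21 were lower than at day -2 and 0 higher, beside 18.9% of all genes lower and 0.56% higher. Labelling fell in the libraries as a whole, from 3.17% of reads at day -2 to 1.27% at day 1 in DMSO, and the median log2 fold change over all genes was -1.20. The median over the 21 genes was -3.76, or -3.06 with Fdps at its bound instead of its fitted value. Scaled by the labelled reads themselves, which takes the general fall out, 7 of the 17 were called: Hmgcs1, Mvd, Sqle, Msmo1, Sc5d, Insig1 and Stard4. The share of all genes called under this scaling is not given here. With the scaling by total reads the count was 9 without replicate A and 10 without replicate C. With a background taken off the count was 15, and the calls of Acat2 and Srebf2 were lost.

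Insig1 had 104, 109 and 133 labelled normalised reads at day -2 and 2.76, 1.82 and 1.65 at day 1, when the 3 libraries together held 7 labelled reads. The ratio of day -2 to day 1 was 55.9, with a 95% counting interval of 26.9 to 139.9 (adjusted p = 4.67e-11). Hmgcs1 went from 704, 482 and 476 labelled normalised reads to 20.2, 29.1 and 33.8, a log2 fold change of -4.31 ± 0.39, adjusted p = 6.34e-13. Msmo1 went from 618, 336 and 505 to 5.52, 21.9 and 10.7 (-5.25 ± 0.47, adjusted p = 4.61e-13). All 3 genes had every day 1 library below every day -2 library by a wide margin. Stard4 went from 210.3, 166 and 139 to 2.76, 16.4 and 9.90 (-4.13 ± 0.51, adjusted p = 8.13e-09), and Sqle from 90.0, 88.5 and 65.7 to 4.60, 8.20 and 4.95 (-3.76 ± 0.56, adjusted p = 7.62e-07). Fdps had 32 labelled reads in all at day -2 and 0 at day 1, so it was at least 3.47-fold lower against a floor of 3 reads per library. Srebf2 was called in labelled reads, from 45.0, 43.8 and 48.0 to 14.7, 7.29 and 15.7 (-1.85 ± 0.56, adjusted p = 0.00904), a change not far from the general fall, and the call was lost when any 1 replicate was left out and with the labelled scaling. Pmvk and Ggps1, not called in total reads, were called lower in labelled reads. Pmvk entered the test through its day -2 reads, so its lower value follows in part from that selection. Pmvk had 72 labelled reads in all at day -2 and 4 at day 1, a ratio of 17.6 with a counting interval of 6.60 to 66.5 (adjusted p = 0.00145), and Ggps1 went from 29.5, 54.6 and 28.4 to 7.36, 7.29 and 6.60 labelled normalised reads (-2.38 ± 0.59, adjusted p = 0.00169). Both calls were lost without replicate A, without replicate C and with the labelled scaling, and that of Ggps1 also without replicate B. Abca1, which rose in total reads, had 7.36, 2.68 and 5.33 and 8.28, 2.73 and 14.0 labelled normalised reads, with overlap (0.69 ± 0.68, adjusted p = 0.422).

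**Figure D3:**
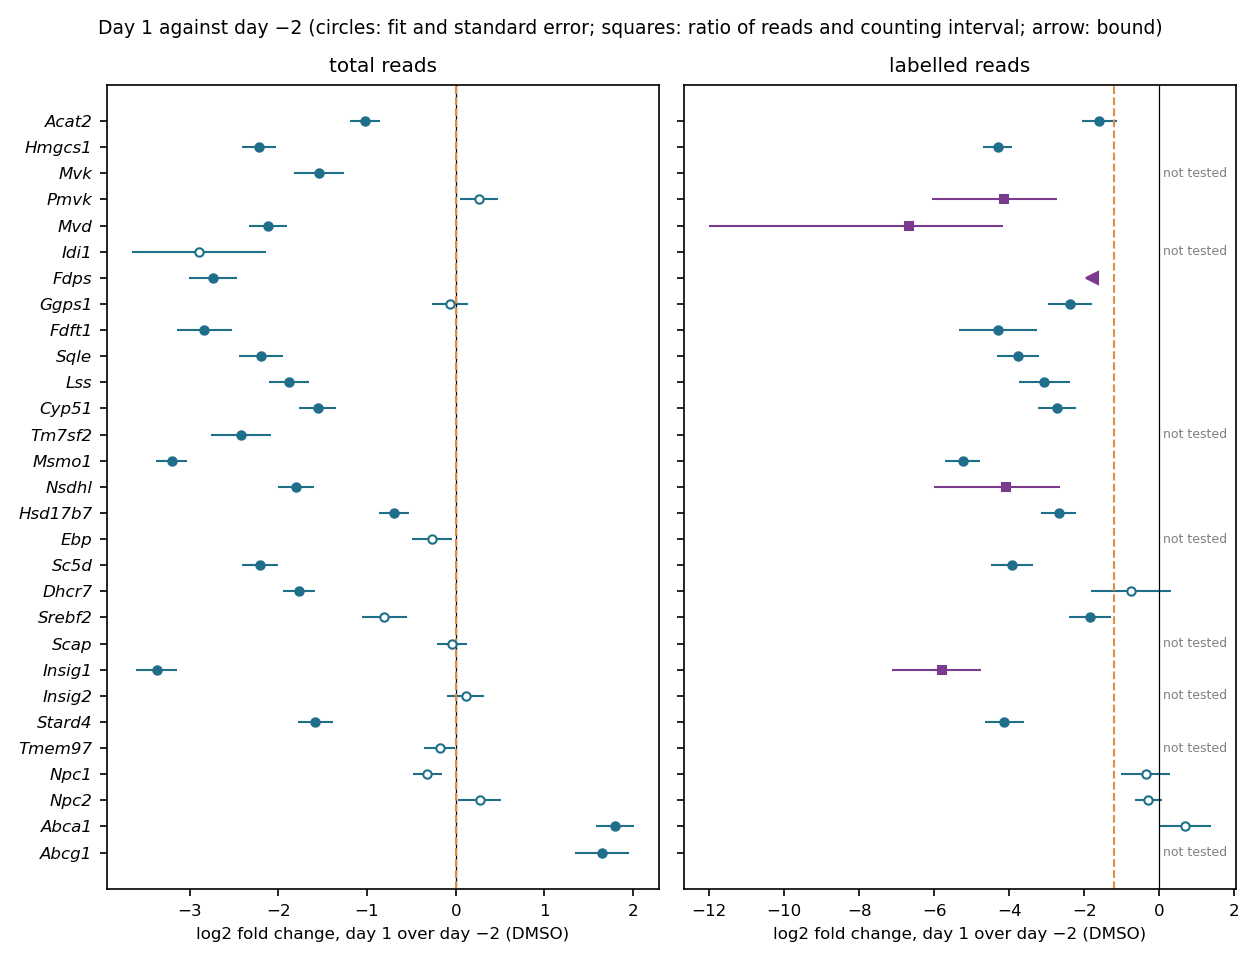
Log2 fold change of day 1 over day -2 in DMSO for each gene, in total reads (left) and in labelled reads (right). Circles are fitted values with standard errors, filled where called. Squares are ratios of reads with 95% counting intervals for called genes with at most 3 labelled reads in each day 1 library and at least 1 in all. The Mvd square rests on 1 labelled read at day 1. The arrow is the bound for Fdps. The dashed line is the median of all genes tested, 0.0035 on the left and -1.20 on the right, and most synthesis genes lie left of it in both panels.

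After day 1 labelling of the pathway returned only in part. Against day 1, 5 genes were higher at day 3 in labelled reads, beside 1.48% of all genes higher and 2.0% lower: Hmgcs1, Cyp51, Msmo1, Nsdhl and Insig1. Cyp51 had 7.36, 2.73 and 22.3 labelled normalised reads at day 1 and 43.8, 68.4 and 54.4 at day 3 (2.33 ± 0.51, adjusted p = 0.00171). Insig1 reached 17.5, 15.1 and 35.9, a ratio of 11.0 to day 1 with a counting interval of 5.04 to 28.6. Without replicate A only Insig1 of the 5 was called, and without replicate C only Cyp51. Between day 3 and day 7 edgeR called 0 of the 21 genes and 0.326% of all genes, and DESeq2 called 0.

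Against day -2, 12 of the 21 genes were lower in labelled reads at day 3 and 0 higher, beside 32.3% of all genes lower and 1.99% higher. The median log2 fold change was -2.22 over the 21 genes and -1.64 over all genes. Scaled by the labelled reads themselves, 4 were lower (Hmgcs1, Msmo1, Hsd17b7 and Stard4) and 2 higher (Abca1 and Npc2). The shares of all genes above belong to the scaling by total reads and are not given for this one. At day 7, 10 were lower and 1, Abca1, higher, beside 28.1% lower and 1.99% higher among all genes, with medians of -2.0 and -1.47. Stard4 was at 10.2, 7.30 and 3.43 labelled normalised reads at day 7 (-4.60 ± 0.54, adjusted p = 9.84e-10), Msmo1 at 32.7, 64.7 and 36.5 (-3.44 ± 0.42, adjusted p = 3.64e-09) and Hmgcs1 at 51.9, 64.7 and 45.7 (-3.35 ± 0.37, adjusted p = 1.83e-10). Total reads of Msmo1 and Hmgcs1 were back near the day -2 level by then, so a smaller share of their reads was labelled. Abca1 rose to 70.0, 32.3 and 50.3 (3.27 ± 0.65, adjusted p = 6.20e-05). Cyp51 had 48.5, 67.8 and 50.3 labelled normalised reads, against 117, 57.2 and 45.3 at day -2, a log2 fold change of -0.40 ± 0.46, adjusted p = 0.468 where its total reads had 2.15. The count at day 7 was 11, and 7 without replicate A.

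The share of a gene's reads that were labelled was followed by day. Sequencing errors add to these shares and were not taken off. The number of T bases in a 3′UTR also sets how often a read can be called labelled, so these shares describe 1 gene over time and do not rank the genes. In DMSO at day -2 the share was 22.4% ± 2.42 (SD, n = 3) for Insig1, beside 3.17% ± 0.485 for the whole libraries. Stard4 had 9.56% ± 1.78, Hmgcs1 7.95% ± 1.30, Hsd17b7 7.66% ± 0.917 and Msmo1 7.33% ± 1.94. At day 1 the share of Insig1 was 4.22% ± 0.303 and that of Hmgcs1 1.89% ± 0.577, beside 1.27% ± 0.0798 for the libraries. At day 7 the share was 0.810% ± 0.0461 for Hmgcs1, 0.749% ± 0.193 for Msmo1 and 2.12% ± 0.245 for Insig1, beside 1.03% ± 0.0869 for the libraries.

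**Figure D4:**
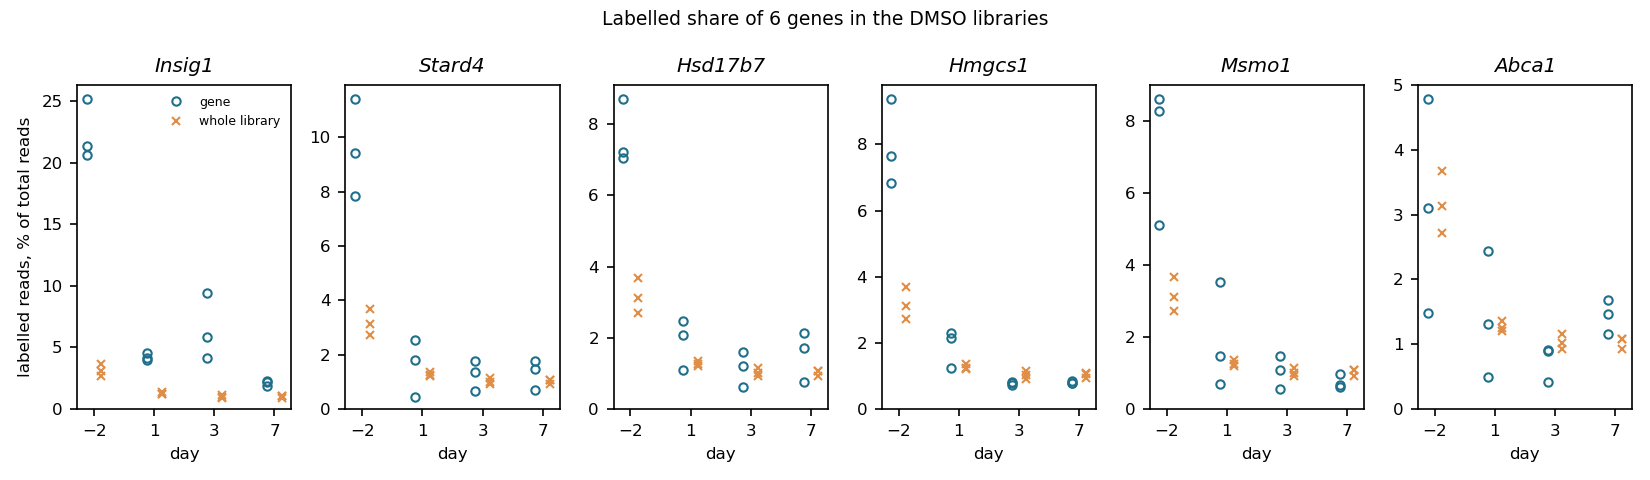
Labelled reads in percent of total reads by day in the DMSO libraries, for Insig1, Stard4, Hsd17b7, Hmgcs1, Msmo1 and Abca1; circles are the gene in each of 3 libraries, crosses are the whole libraries, and each panel has its own axis. In the first 5 genes every day -2 library lies above every later library.

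No ML-792 effect on the 29 genes was called at day -2, and 6 to 8 genes were called at each later day. At day -2 edgeR called 0 of 29 genes, none had an unadjusted p under 0.05, DESeq2 called 0, and 0.0% of all genes were called. In labelled reads edgeR also called 0 of 21 there, with 0 at an unadjusted p under 0.05, 0 by DESeq2 and 0.0% of all genes. The log2 fold changes in total reads ran from -0.58 for Tm7sf2 to 0.37 for Abcg1. The dip of the synthesis genes at day 1 was present with ML-792: Hmgcs1 stood at 7782, 8770.0 and 6298 at day -2 and at 1954, 2604 and 1900.1 at day 1 in the treated cells, and Insig1 at 443, 435 and 377 and at 65.3, 81.4 and 64.3.

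At day 1, 4 of the 29 genes were lower with ML-792 and 2 higher, beside 4.31% of all genes lower and 3.72% higher. Srebf2 stood at 503, 400.1 and 503 normalised reads with ML-792 against 683, 1269 and 755 with DMSO, all treated libraries being below all controls (log2 fold change -0.94 ± 0.24, adjusted p = 0.0190). Pmvk stood at 337, 285 and 341 against 558, 496 and 623 (-0.80 ± 0.18, adjusted p = 0.00806) and Stard4 at 373, 426 and 296 against 624, 646 and 543 (-0.73 ± 0.17, adjusted p = 0.0111). Insig2 at 370.1, 306 and 296 was lower as well (-0.60 ± 0.19, adjusted p = 0.0774). Higher were Abca1, at 1197, 1017 and 1108 against 628, 557 and 575 (0.92 ± 0.17, adjusted p = 0.00123), and Npc1, at 1322, 1031 and 1262 against 814, 950.1 and 738 (0.53 ± 0.15, adjusted p = 0.0460). Without replicate A or without replicate C only the call of Abca1 was left. With the letter as a block 11 genes were called, the added ones being Dhcr7 (0.43 ± 0.13, adjusted p = 0.0415), Ebp (0.58 ± 0.18, adjusted p = 0.0434), Hmgcs1 (0.51 ± 0.12, adjusted p = 0.00722), Hsd17b7 (-0.39 ± 0.11, adjusted p = 0.0207) and Npc2 (-0.55 ± 0.13, adjusted p = 0.00363). Of the markers, 2 of 7 for adipocytes (Fabp4 and Plin1) and 1 of 7 for fibroblasts (Thy1) were higher with ML-792 on that day, while the summed levels of the 2 lists, 33177 to 39580.3 and 189466 to 292882 normalised reads, lay below and around those of the controls in that order. Most of the adipocyte sum was Lpl, whose mean was 29686 with ML-792 and 37131 with DMSO. The part of these markers was not tested.

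By day 3 the treated cells were lower in 7 of the 29 genes and higher in 1, beside 6.97% of all genes lower and 8.42% higher. Insig2 had not risen as in the controls, at 403, 564 and 469 normalised reads against 969, 1042 and 1076 (-1.11 ± 0.19, adjusted p = 2.42e-04). Stard4 was at 235, 224 and 262 against 433, 529 and 340.2 (-0.85 ± 0.18, adjusted p = 0.00184), and Mvd at 708, 490.1 and 586 against 1143, 779 and 1246 (-0.83 ± 0.24, adjusted p = 0.0285). In all 3 genes no treated library reached the lowest control. Cyp51 at 3183, 3654 and 3264 (-0.72 ± 0.17, adjusted p = 0.00744) and Hmgcs1 at 5884, 8093 and 5620.3 (-0.58 ± 0.19, adjusted p = 0.0595) were lower too, and so were Nsdhl (-0.60) and Pmvk (-0.57). Ebp was the exception, at 1979, 2072 and 1486 against 869.9, 1006 and 805 (1.05 ± 0.21, adjusted p = 0.00145). Srebf2, lower at day 1, now stood at 478, 714 and 417 against 489, 704 and 430.5, with overlapping libraries (-0.01 ± 0.24, adjusted p = 0.993). Without replicate A only Insig2 of the 8 was called, and without replicate C Cyp51, Ebp, Insig2 and Stard4 were. Beside these values, 5 of 7 fibroblast markers were higher with ML-792 at day 3, their sum being 62121 to 75935 normalised reads against 29288 to 35811 with DMSO. Of 7 adipocyte markers Adipoq and Lpl were lower and Lep higher, and the sum was 400838 to 464952 against 343825 to 496580.0. The part of cell identity in the day 3 differences was not tested.

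In day 7 cells 4 of the 29 genes were lower with ML-792 and 2 higher, beside 5.58% of all genes lower and 6.03% higher. Abcg1 had the largest difference, at 429, 364 and 310.0 normalised reads against 1227, 869.9 and 1127 (-1.55 ± 0.26, adjusted p = 3.70e-04). Its fellow pump Abca1 did not show it, at 4019.8, 3785 and 3600.2 against 4169, 2776 and 3437 (0.14 ± 0.17, adjusted p = 0.760). Insig2 stood at 819, 865 and 755 against 1828, 2382 and 1512 (-1.23 ± 0.19, adjusted p = 1.10e-04), so it was called lower with ML-792 at all 3 days after induction. Its day 1 call was lost when any 1 replicate was left out, without the filter and with the 6 libraries of the day alone. Npc1, higher at day 1, was lower at day 7, at 639, 467 and 531 against 955, 850.0 and 1119 (-0.84 ± 0.16, adjusted p = 0.00106). Cyp51 at 4619, 4694 and 3361 was lower (-0.66 ± 0.17, adjusted p = 0.0196). Hsd17b7, at 1276, 1280.2 and 1172 against 950.1, 831 and 728 (0.57 ± 0.15, adjusted p = 0.0220), and Dhcr7, at 1292, 986 and 1146 against 785, 834 and 789 (0.51 ± 0.16, adjusted p = 0.0518), were higher. The calls of Cyp51, Dhcr7 and Hsd17b7 were lost without replicate A, and these and Npc1 without replicate C. Of the fibroblast markers 4 of 7 were higher with ML-792 and Dlk1 was lower, with a sum of 53281 to 68824 normalised reads against 25999.6 to 45973 with DMSO. Of the adipocyte markers 3 of 7 were higher, with a sum of 825862 to 889766 against 621754 to 699197, and their part was not tested.

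**Figure D5:**
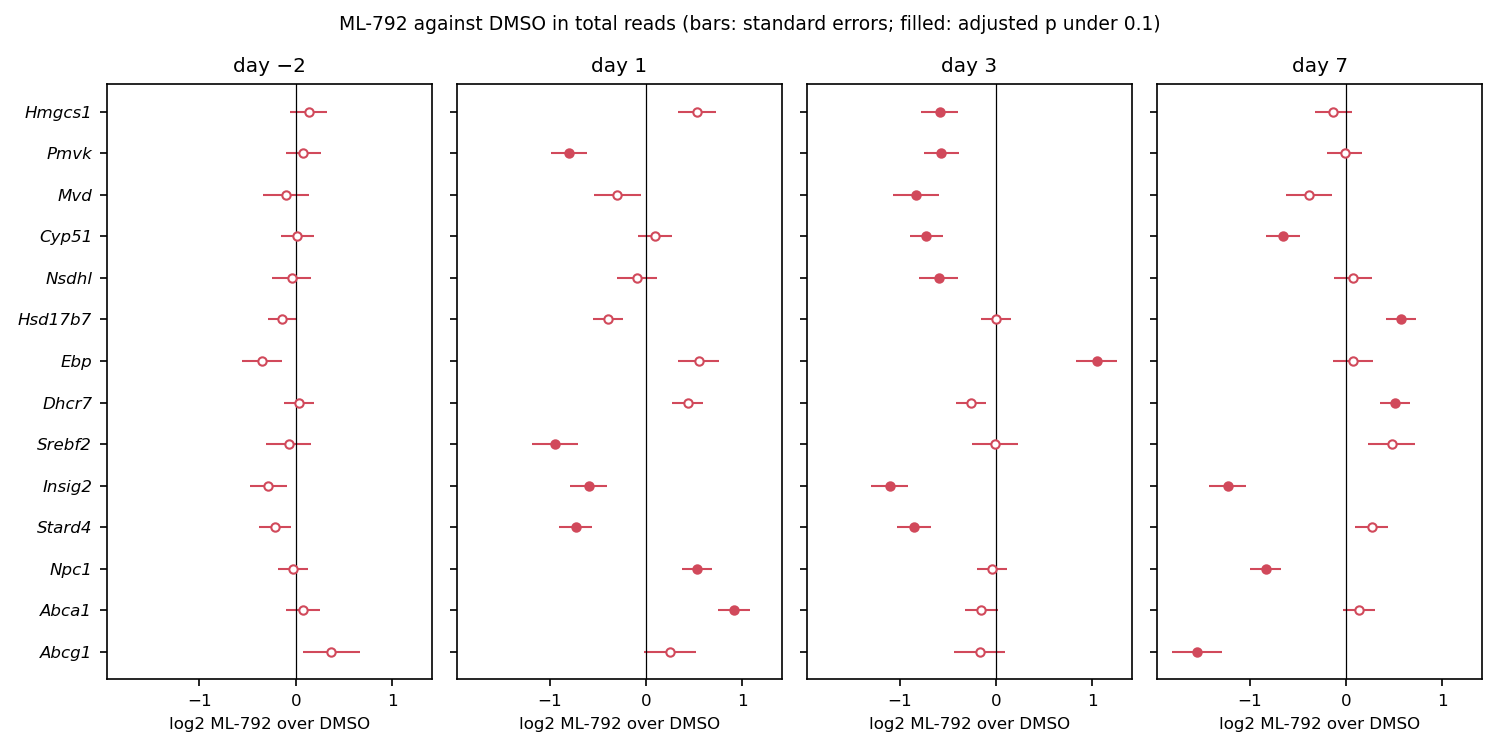
Log2 fold change of ML-792 over DMSO in total reads at each of the 4 days for the genes called on at least 1 day, with standard errors; filled points are called at an adjusted p under 0.1. Insig2 is called below 0 at days 1, 3 and 7, Npc1 above 0 at day 1 and below 0 at day 7, and Ebp above 0 at day 3.

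Whether the ML-792 effect differed among the 4 days was tested as an interaction, which called 13 of the 29 genes beside 11.9% of all genes. Npc1 had the smallest adjusted p at 0.00159, followed by Abcg1 at 0.00427. Of these 13 calls none was left without replicate A, and without replicate C only that of Stard4. In labelled reads the test called 0 of 21 genes, with 2 at an unadjusted p under 0.05 and 0 by DESeq2, beside 0.28% of all genes. No ML-792 effect was called for the 21 genes in labelled reads at day 1 (1.06% of all genes), day 3 (1.12%) or day 7 (0.964%). Unadjusted, 5, 3 and 1 genes had a p under 0.05 on those days, and DESeq2 called Sc5d at day 1 and none at the others. Sc5d had 9.63, 26.8 and 14.9 labelled normalised reads with ML-792 at day 1 and 3.68, 2.73 and 8.25 with DMSO (1.75 ± 0.53, adjusted p = 0.123).

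Other genes around the pathway, from lists set beside the 29, were read in the same DMSO libraries. Their counts stand beside the shares of all genes given above, 9.86% lower and 6.99% higher at day 1 and 19.4% lower and 18.9% higher at day 7. Scarb1, the HDL receptor, was lower at day 1 (log2 fold change -1.46) and higher at day 7 (log2 fold change 3.26) than at day -2.

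Of 10 genes that process or degrade SREBP proteins, none was lower at day 1 and 2 were higher, Srebf1 and Rnf145. Srebf1, the sister gene of Srebf2 and a target of LXR, went from 255 ± 11.8 to 705 ± 99.8 (log2 fold change 1.47 ± 0.20, adjusted p = 5.80e-05) while Srebf2 did not rise. At day 7, 5 of 8 oxysterol and LXR genes were higher and 3 lower, so the list did not move in 1 direction. The lower genes were Mylip, Ch25h and Cyp7b1. Nr1h3, which encodes LXR alpha, went from 84.8 ± 18.6 to 3023 ± 366 (log2 fold change 5.15 ± 0.24, adjusted p = 2.73e-10) between day -2 and day 7, and Lpcat3, an LXR target that remodels phospholipids, had 2.08. Of 16 genes for sterol esterification and transport, 2 were lower and 1 higher at day 1, and 3 lower, close to the share of all genes, and 7 higher at day 7. Of 14 genes that use isoprenoids for other ends, 1 was lower and 1 higher at day 1, and 1 lower and 6 higher at day 7.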

How the data were processed

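The authors sequenced 3′ ends with QuantSeq, demultiplexed with bcl2fastq 2.17.1.14 and counted reads with SlamDunk over RefSeq 3′UTRs of mm10; the deposited values are raw counts per 3′UTR entry of total reads and of labelled reads (at least 1 T-to-C change), so sequencing errors add to the second. A further 6 library columns per table matched no sample and were not used. For this work all 26563 (total) and 10589 (labelled) entries that passed a filter (minimum count 10, minimum total 15) were fitted with edgeR 4.0.16 quasi-likelihood tests in R 4.3.3, with TMM factors of the total reads for both (the study also scaled labelled by total reads, with DESeq2 size factors), and Benjamini-Hochberg adjustment over all entries; background shares use 1 entry per gene (13331 and 6434 genes). The DMSO days were fitted on 12 libraries, ML-792 effects and their interaction with day on 24. The fits were tested on simulated data. Alternatives were DESeq2 1.42.0, no filter, fitting 1 entry a gene, a block for the replicate letter, leaving out each letter, other sets of libraries and, for labelled reads, their own scaling and a background taken off. Same-lettered libraries deviated together (every r over 0.1) in total reads in 6 of the 9 comparisons of groups (lowest r 0.237 between days -2 and 1, 0.199 between -2 and 3, 0.106 between 1 and 3, 0.132 between 3 and 7, 0.130 and 0.124 between arms at days -2 and 1) and not between days -2 and 7 or between arms at days 3 and 7; where they did, the blocked value is given where it changes a call. Library-by-library values are given for regulators, committed steps and pumps, and for the 3 highest and 3 lowest called genes without overlap at day 7 and under ML-792. The genes and lists were chosen with earlier results of these data known, and day 3 against day 1, with the values of Cyp51, Msmo1 and Ebp at other days, was added after the values were seen. Intervals cover counting error only.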

Additional observations from a re-analysis of the deposited data

Results flagged for a closer look

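For 13 genes the ML-792 effect on total reads differed among the 4 days by the interaction test. The adjusted p was 0.00159 for Npc1, whose effect turned from 0.53 at day 1 to -0.84 at day 7, and 0.00427 for Abcg1, which had 0.25 at day 1 and -1.55 at day 7. It was 0.0115 for Stard4, lower at days 1 and 3 and at 0.26 at day 7, 0.0146 for Ebp, 0.0219 for Abca1, whose effect was called at day 1 alone, and 0.0277 for Hsd17b7. The remaining values were 0.0480 for Cyp51, 0.0487 for Srebf2, 0.0540 for Hmgcs1, 0.0631 for Insig2, 0.0638 for Pmvk, 0.0825 for Dhcr7 and 0.0988 for Insig1. None of the 13 was called without replicate A, and only Stard4 without replicate C.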

How the results depend on the processing

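No called gene changed direction under any alternative run, but counts depended on the libraries. Leaving out each replicate letter gave 9 to 17 called genes for total reads at day 3 against day -2 (17 with all), 0 to 12 at day 7 against day 3 (9 with all), 1 to 7 for ML-792 at day 1 (6 with all), 1 to 13 at day 3 (8 with all), 2 to 8 at day 7 (6 with all) and 0 to 16 for the interaction (13 with all). In labelled reads the range was 9 to 14 at day 1 against day -2 (17 with all), 7 to 12 at day 7 against day -2 (11 with all) and 1 to 5 at day 3 against day 1 (5 with all). Leaving out B raised most counts of total reads, and leaving out A or C lowered them; the cause was not tested.

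With the replicate letter as a block the count was 15 at day 7 against day 3, 11 for ML-792 at day 1, 14 at day 3, 10 at day 7 and 19 for the interaction, and 2 (Npc2 and Sc5d) for ML-792 at day 1 in labelled reads. By the correlation of their deviations the letters did not pair the 2 arms at days 3 and 7 (lowest r 0.0586 and -0.0195) or days -2 and 7 in DMSO (0.0735). The block removed no call. Shares of all genes are given above for the main runs only, so counts of the alternative runs have no background beside them. Without the filter 8 genes were called for the interaction, and with the 6 libraries of the day alone 5 for ML-792 at day 3. Scaled by the labelled reads themselves, 7 genes were called at day 1, 6 at day 3 and 5 at day 7 against day -2, and 1 (Sc5d) for ML-792 at day 1, as with DESeq2 (1) and 1 entry per gene (1). The labelled reads of single genes were few, so an ML-792 effect on labelling may lie below what this depth can show.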
